A study of Homo sapiens with 12 samples.

Results

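The genes described here build the junctions by which epithelial cells hold together, seal and communicate: desmosomes, tight junctions, gap junctions and adherens junctions, with the cytolinkers DST and PLEC and the adhesion molecule EPCAM. They form a list of 39 symbols, each read by the gene's brightest probe set, a group of short probes summarised as 1 value. Of these, 37 were measured among 19775 genes. F11R and CTNND1 are not analysed here, since no probe set carried either symbol alone. The cells were MCF-10A, an established line of non-tumorigenic human mammary epithelial cells, profiled on 12 Affymetrix arrays 48 h after retroviral infection. There were 4 groups of 3 arrays: empty vector, wild-type full-length Notch1, Notch1 L1601P+ΔP, and NICD. Full-length Notch1 is a receptor that needs ligand and cleavage to signal. L1601P lies in the part of the receptor that guards against cleavage without ligand, and ΔP removes the PEST region that shortens the life of the intracellular domain. NICD is that free intracellular domain, and the descriptions of its samples add gfp to the name without saying whether it is a tag or a reporter. The retrovirus was common to all 4 groups, and the sources used here do not give its promoter.

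Values are the authors' log2 signals, so a difference of 1 is a doubling of signal, and levels of different genes cannot be compared. Differences are given ± the standard error of the fit and group levels ± SD, with n = 3 arrays per group. A gene was called when limma's Benjamini-Hochberg adjusted p over all 19775 genes was under 0.05. The replicates are labelled biological with nothing on separate cultures, so the p-values cover only the spread among these samples, which may be technical. In RNA from whole cultures, fewer cells of a type and less RNA per cell cannot be told apart. Array medians ran from 5.64 to 5.697. One NOTCH1 probe set read 6.42 to 6.77 with vector and 9.11 to 9.19 with full-length Notch1. It read 8.72 to 8.76 with Notch1 L1601P+ΔP and 8.75 to 8.83 with NICD. The other read 9.38 to 9.50, 9.49 to 9.56, 9.44 to 9.55 and 9.64 to 9.83 in that order of groups. Of 13 measured markers of fibroblasts, endothelium and blood cells, 0 were called by limma in any comparison with vector, and before adjustment 1 endothelial marker had a p under 0.05, lower with full-length Notch1.

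Desmosomes are spot-like junctions in which desmogleins and desmocollins, the desmosomal cadherins, bind their counterparts on the next cell. Inside the cell, plakoglobin, plakophilins and desmoplakin form a plaque that anchors keratin filaments. Tight junctions seal the space between cells through claudins and occludin-family proteins held by scaffolds such as ZO-1. Gap junctions are channels of connexins, and adherens junctions couple cadherins and nectins to actin.

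With NICD, 4 of 6 desmosomal cadherins, desmoplakin and nectin-4 were higher than with vector, while the cytolinkers, plakophilin-2, 1 connexin and EPCAM were lower. Of the 37 members, 11 were called higher and 10 lower, 29.7% and 27%, where 9.54% and 18.1% of all genes were called in those directions. The median difference was 0.06 over the members and -0.02 over all genes. Brightness bears on these shares: among the 12009 genes with a log2 mean of at least 6 in some group, 15.1% were called higher and 32.3% lower. Of the members, 31 passed this filter, CGN only through its means with NICD and Notch1 L1601P+ΔP. The 6 below it were DSG1, DSC1, CLDN3, CLDN8, GJA1 and GJB6. With the filter, PKP4 and TJP3 were also called lower with NICD and CGN higher, and no member still tested lost its call. The 29.7% and 27% are shares of all 37 members before the filter, so the filtered shares are not their background. Among the 31 members tested with the filter, the higher calls included CGN but no longer DSG1, which was not tested. The lower calls were the same 10 with PKP4 and TJP3 added, and these are the calls to set beside the 32.3%. Scaling bears on the balance as well: higher calls made up 34.6% of all calls with NICD and 51.6% after a further cyclic loess normalization. No member's call changed direction under it.

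With Notch1 L1601P+ΔP, the desmosomal cadherins DSG3, DSC2 and DSC3, desmoplakin and the claudins CLDN1 and CLDN4 were called higher, and PKP2, DST, PLEC and EPCAM lower. These 6 and 4 calls, 16.2% and 10.8% of the 37 members, stood against 2.16% and 2.95% of all genes called. The medians were 0.04 for members and -0.01 for all genes. After the same filter on dim genes 4.2% and 8.74% of genes were called, and 31 members were tested. With it, JUP, PKP1, CLDN7 and NECTIN4 were also called higher and CTNNA1 lower, and no member still tested lost its call. The filtered shares are therefore not the background of the 6 and 4 calls. The background itself moved with single arrays: of all genes, 1012 were called, but 592 without vector replicate 3, and 628 and 566 without Notch1 L1601P+ΔP replicates 1 and 2. Cyclic loess moved the higher share of all calls here from 42.3% to 58.4%. With full-length Notch1, limma called 0 members in either direction, beside 0.0303% of all genes higher and 0.00506% lower. Those were 7 genes, and 4 without vector replicate 1 or without full-length Notch1 replicate 2 or 3. Before adjustment, at a p under 0.05, 4 members were higher (DSG3, DSC1, DSC3 and CTNNB1) and 0 lower. By the same unadjusted rule 444 of all 19775 genes were higher and 609 lower. The 3 comparisons share the vector arrays, so their values are set side by side and not counted against each other.

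**Figure D1:**
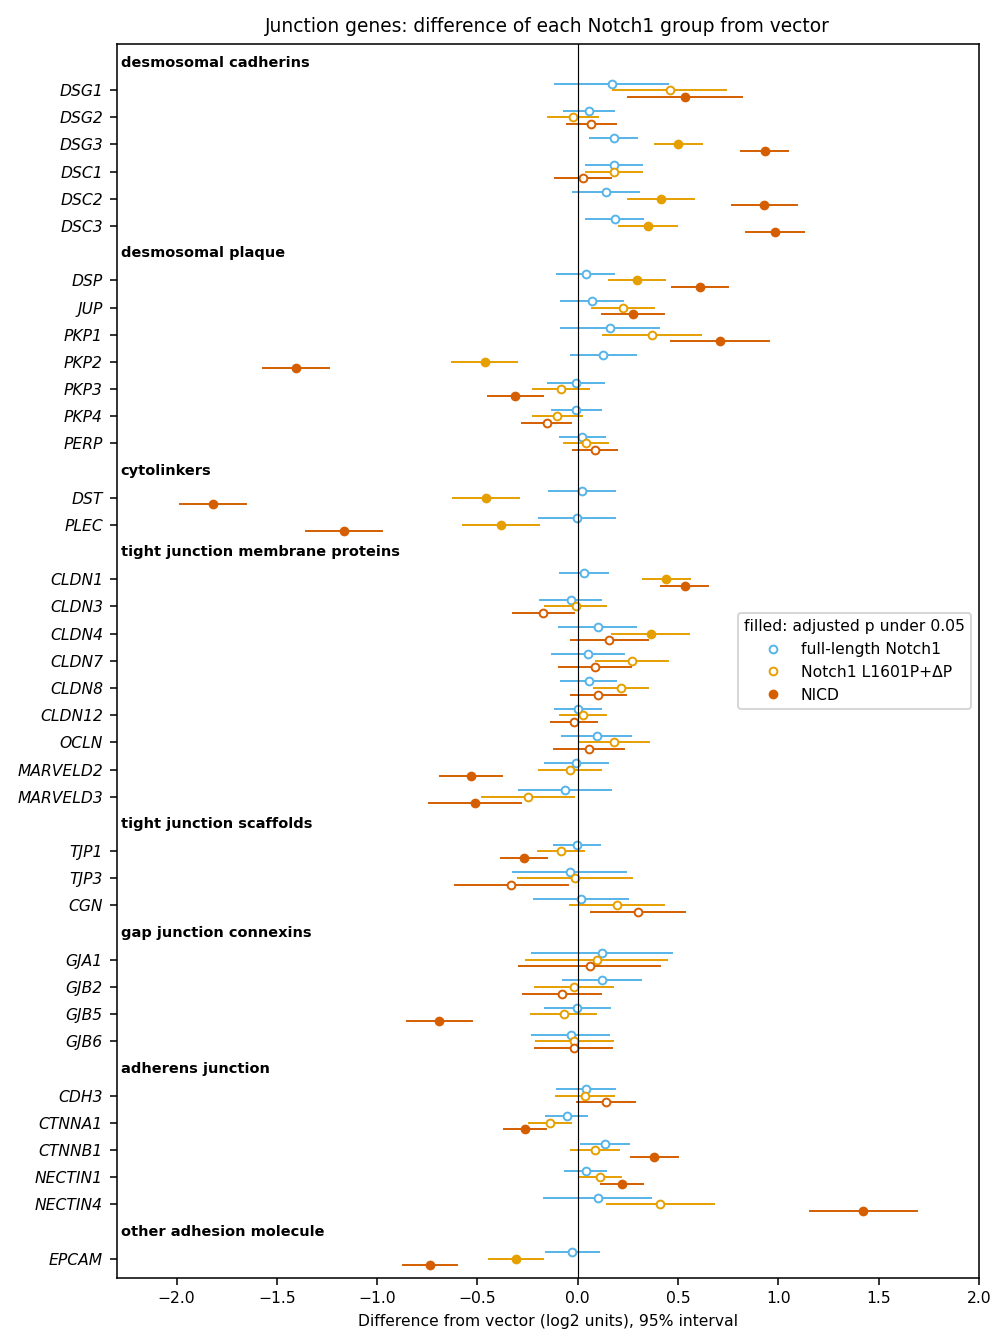
Difference of each Notch1 group from vector in log2 units, by junction class, for the 37 measured members. Points are fitted differences of 3 against 3 arrays, bars are 95% intervals, and filled points have a limma adjusted p under 0.05. The desmosomal cadherins DSG3, DSC2 and DSC3 lie to the right with NICD (0.93, 0.93 and 0.98), DST and PLEC to the left (-1.82 and -1.17), and most claudins and connexins near 0.

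Of the 6 desmosomal cadherins, 4 rose with NICD (DSG1, DSG3, DSC2 and DSC3), 0 fell, and DSG2 and DSC1 were not called. Desmoglein-3, the desmoglein of basal epithelial layers, gave 11.31, 11.28 and 11.18 in the vector arrays, 11.40, 11.44 and 11.47 in those of full-length Notch1, 11.77, 11.80 and 11.71 in those of Notch1 L1601P+ΔP, and 12.23, 12.14 and 12.21 in the NICD arrays. All 3 NICD arrays lay above all Notch1 L1601P+ΔP arrays, which lay above all full-length Notch1 and vector arrays. DSG3 was higher by 0.93 ± 0.05 with NICD, a 1.91-fold difference (adjusted p = 3.94e-08, limma), and by 0.50 ± 0.05 with Notch1 L1601P+ΔP (adjusted p = 0.000131). With full-length Notch1 its difference was 0.18 ± 0.05, with a 95% interval of 0.06 to 0.30 and an adjusted p of 0.814.

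Desmocollin-3, a partner of desmoglein-3 in those layers, gave 10.26, 10.13 and 10.19 in the vector arrays, 10.31, 10.30 and 10.52 in those of full-length Notch1, 10.55, 10.48 and 10.61 in those of Notch1 L1601P+ΔP, and 11.19, 11.15 and 11.19 in the NICD arrays. Desmocollin-2, the most widely expressed desmocollin, gave 9.92, 9.97 and 9.81 in the vector arrays, 9.88, 10.11 and 10.13 in those of full-length Notch1, 10.39, 10.34 and 10.22 in those of Notch1 L1601P+ΔP, and 10.80, 10.83 and 10.85 in the NICD arrays. In both genes the NICD arrays stood above all others and the Notch1 L1601P+ΔP arrays above all vector arrays. DSC3 was higher by 0.98 ± 0.07 with NICD and 0.35 ± 0.07 with Notch1 L1601P+ΔP, and DSC2 by 0.93 ± 0.07 and 0.42 ± 0.07. The limma adjusted p was 1.57e-07 and 9.15e-07 with NICD, and 0.00834 and 0.00627 with Notch1 L1601P+ΔP.

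Desmoglein-1, a desmoglein of upper epidermal layers, was dim and rose from 3.51 ± 0.16 to 4.04 ± 0.25 with NICD (0.54 ± 0.13, limma adjusted p = 0.00764). In the Notch1 L1601P+ΔP arrays it was 3.97 ± 0.21, a difference of 0.46 ± 0.13 that missed the threshold (adjusted p = 0.0649). Desmoglein-2, the desmoglein of simple epithelia, differed from vector by 0.07 ± 0.06 with NICD, with a 95% interval of -0.06 to 0.19. Its dimmer probe set was called lower, at -0.21. DSC1, a dim desmocollin of differentiated epidermis, differed by 0.03 ± 0.06 (95% interval -0.11 to 0.16).

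**Figure D2:**
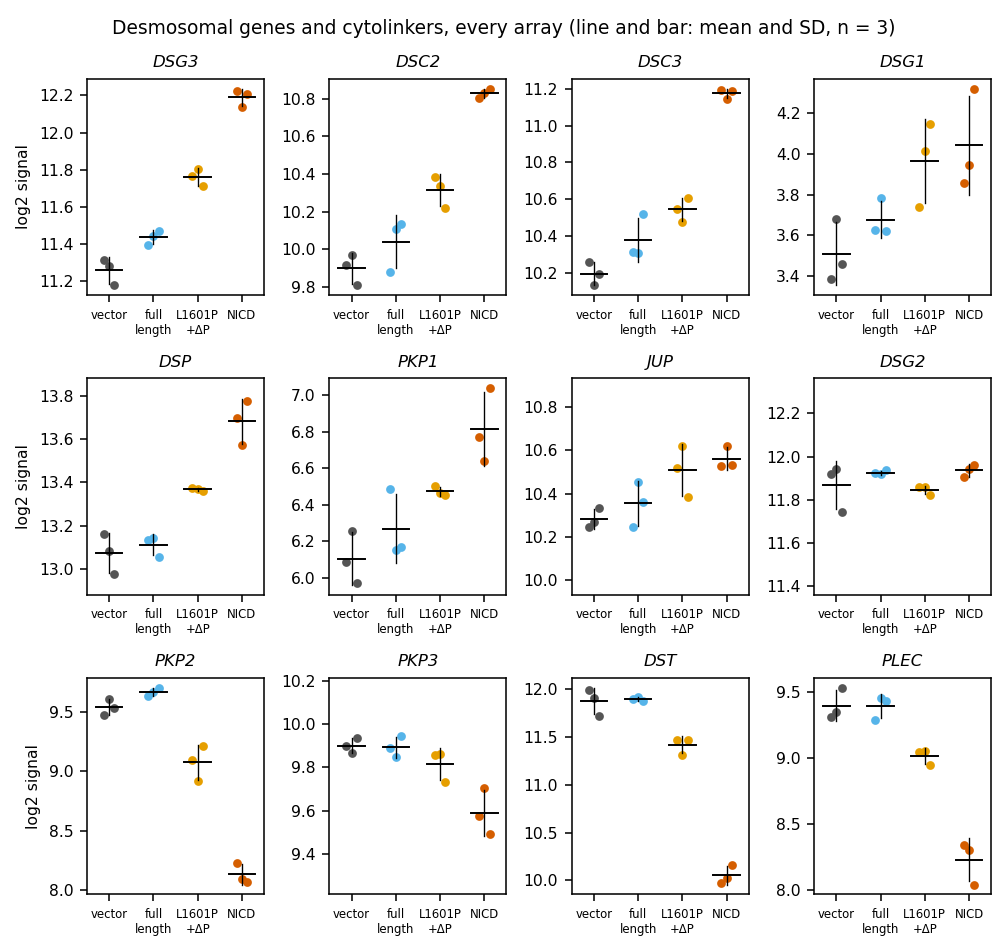
Log2 signal of desmosome and cytolinker genes in each of the 12 arrays, grouped as vector, full-length Notch1, Notch1 L1601P+ΔP and NICD. Points are arrays, horizontal lines are group means and vertical bars are the SD of 3 arrays. DSG3, DSC2 and DSC3 step upward from vector to NICD and PKP2, DST and PLEC downward, with Notch1 L1601P+ΔP between.

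The plaque genes split. DSP, JUP and PKP1 rose with NICD, PKP2 and PKP3 fell, and PKP4 and PERP were not called. Desmoplakin, which ties the plaque to keratin filaments, was 13.07 ± 0.09 in the vector arrays, 13.11 ± 0.05 in those of full-length Notch1, 13.37 ± 0.01 in those of Notch1 L1601P+ΔP and 13.68 ± 0.10 in the NICD arrays. That was 0.61 ± 0.06 above vector with NICD (limma adjusted p = 1.19e-05) and 0.29 ± 0.06 with Notch1 L1601P+ΔP (adjusted p = 0.0202), a call lost in 4 of 12 alternatives, with adjusted p up to 0.0846. Plakoglobin (JUP), which links desmosomal cadherins to desmoplakin, was higher by 0.28 ± 0.07 with NICD (adjusted p = 0.0109) and differed by 0.22 ± 0.07 with Notch1 L1601P+ΔP (adjusted p = 0.0987).

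The plakophilins, which cross-link the plaque, were called in both directions. Plakophilin-1 gave 6.09, 6.26 and 5.97 in the vector arrays, 6.49, 6.15 and 6.17 in those of full-length Notch1, 6.50, 6.46 and 6.46 in those of Notch1 L1601P+ΔP, and 6.77, 6.64 and 7.04 in the NICD arrays. It was higher with NICD by 0.71 ± 0.11 (limma adjusted p = 0.000376), and with Notch1 L1601P+ΔP it differed by 0.37 ± 0.11 (adjusted p = 0.0848). Its other probe set was not called. Plakophilin-2 gave 9.47, 9.61 and 9.53 in the vector arrays, 9.64, 9.67 and 9.70 in those of full-length Notch1, 9.10, 8.92 and 9.21 in those of Notch1 L1601P+ΔP, and 8.23, 8.10 and 8.07 in the NICD arrays. The NICD arrays lay below all others, and the Notch1 L1601P+ΔP arrays below all vector and full-length Notch1 arrays. PKP2 was -1.41 ± 0.07 with NICD (adjusted p = 1.68e-08) and -0.46 ± 0.07 with Notch1 L1601P+ΔP (adjusted p = 0.00302), while with full-length Notch1 it was 0.13 ± 0.07 (adjusted p = 0.955). Plakophilin-3 was lower with NICD by a smaller amount, -0.31 ± 0.06 (adjusted p = 0.00244). PKP4 was -0.15 ± 0.06 (adjusted p = 0.0582). It was called lower under 3 alternatives (a variance trend, without dim genes, and without NICD replicate 3) and by 2 of its 5 probe sets, not the brightest. PERP, a desmosome-associated membrane protein, was 0.08 ± 0.05 (95% interval -0.03 to 0.19).

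The desmosomal cadherin genes are neighbours on chromosome 18, in the RefSeq order DSC3, DSC2, DSC1, DSG1, DSG4, DSG3 and DSG2, with the classical cadherin CDH2 before them. DSC3, DSC2, DSG1, DSG4 and DSG3 were called higher with NICD, DSC1 and DSG2 were not called, and CDH2 was called lower (-0.40 ± 0.09). DSG4 and CDH2 belong to the related genes given further on and are named here for their place, after their values were seen. Promoters of 4 desmosomal genes that rose together, DSG3, DSC3, DSC2 and DSP, are printed because these members were called higher together. The sequences are RefSeq's on GRCh38.p14, 250 bases before to 50 after the gene's start, read along the gene's strand. Capitals mark TGGGAA, the core bound by the Notch partner RBPJ, or CAGGTG, an E-box bound by ZEB and SNAI factors, on either strand (TTCCCA or CACCTG when read on the other).
DSG3 (chr18:31447491-31447790, plus strand): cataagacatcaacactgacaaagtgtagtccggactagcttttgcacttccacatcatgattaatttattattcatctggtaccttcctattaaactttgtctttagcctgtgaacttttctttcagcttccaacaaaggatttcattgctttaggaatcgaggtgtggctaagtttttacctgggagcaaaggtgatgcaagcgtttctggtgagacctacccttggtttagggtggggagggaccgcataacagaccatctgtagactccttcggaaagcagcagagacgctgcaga
DSC3 (chr18:31042693-31042992, minus strand): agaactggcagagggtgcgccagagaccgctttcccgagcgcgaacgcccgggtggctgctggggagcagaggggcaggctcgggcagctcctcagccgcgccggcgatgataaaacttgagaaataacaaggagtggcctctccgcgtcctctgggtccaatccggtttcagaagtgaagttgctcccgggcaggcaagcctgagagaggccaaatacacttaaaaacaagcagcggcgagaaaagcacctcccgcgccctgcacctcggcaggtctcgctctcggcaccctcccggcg
DSC2 (chr18:31102372-31102671, minus strand): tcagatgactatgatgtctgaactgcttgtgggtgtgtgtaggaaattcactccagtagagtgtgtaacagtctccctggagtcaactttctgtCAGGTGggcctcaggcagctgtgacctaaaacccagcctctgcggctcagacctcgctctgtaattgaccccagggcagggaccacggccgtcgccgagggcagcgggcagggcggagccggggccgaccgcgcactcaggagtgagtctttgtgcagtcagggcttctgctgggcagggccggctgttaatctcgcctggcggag
DSP (chr6:7541421-7541720, plus strand): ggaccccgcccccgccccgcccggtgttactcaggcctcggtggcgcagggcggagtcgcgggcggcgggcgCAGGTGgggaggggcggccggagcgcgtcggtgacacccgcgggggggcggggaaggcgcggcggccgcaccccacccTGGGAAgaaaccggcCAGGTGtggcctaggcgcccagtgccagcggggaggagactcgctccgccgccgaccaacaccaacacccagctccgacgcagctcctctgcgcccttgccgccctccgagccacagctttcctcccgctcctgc

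The windows of DSG3 and DSC3 held neither motif, that of DSC2 held CAGGTG starting 156 bases before the start, and that of DSP held TGGGAA starting 100 before it and CAGGTG starting 178 and 85 before it. A promoter was matched for 28 of the 37 measured members. TGGGAA stood in 6 of these 28 (21.4%) and in 24.3% of 27305 promoters of the same length, and CAGGTG in 9 of 28 (32.1%) and in 20.6%. The palindrome AACCGGTT, bound by grainyhead-like factors, stood in 0 of 28 and in 0.117% of all. Both strands were searched, and no motif matches overlapped. Among the 10 members called higher with NICD that had a promoter, 2 held TGGGAA (DSP and NECTIN4) and 4 held CAGGTG (DSG1, DSC2, DSP and NECTIN4). Among the 4 called lower, 0 held TGGGAA and 1 held CAGGTG (TJP1), and among the 14 not called, 4 held each. A match is a run of letters, not a site shown to be bound.

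Both cytolinkers fell. Dystonin (DST), a giant linker whose epithelial form ties keratin to hemidesmosomes, gave 11.99, 11.90 and 11.72 in the vector arrays, 11.89, 11.91 and 11.88 in those of full-length Notch1, 11.46, 11.31 and 11.47 in those of Notch1 L1601P+ΔP, and 9.98, 10.02 and 10.16 in the NICD arrays. The NICD arrays were the lowest, and the Notch1 L1601P+ΔP arrays lay below all vector and full-length Notch1 arrays. DST was -1.82 ± 0.08 with NICD (limma adjusted p = 1.64e-09) and -0.46 ± 0.08 with Notch1 L1601P+ΔP (adjusted p = 0.00363). Plectin (PLEC), which links intermediate filaments to junctions and to other filaments, gave 9.31, 9.35 and 9.53 in the vector arrays, 9.29, 9.45 and 9.44 in those of full-length Notch1, 9.05, 9.05 and 8.95 in those of Notch1 L1601P+ΔP, and 8.34, 8.31 and 8.04 in the NICD arrays. The order of groups was the same, at -1.17 ± 0.09 with NICD (adjusted p = 4.37e-07) and -0.38 ± 0.09 with Notch1 L1601P+ΔP (adjusted p = 0.024). The latter call was lost in 6 of 12 alternatives, leaving out any 1 Notch1 L1601P+ΔP array among them, with adjusted p up to 0.0988.

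Most tight junction membrane genes were not called. Of 9 membrane proteins measured, CLDN1 was called higher with NICD, MARVELD2 and MARVELD3 lower, and 6 (CLDN3, CLDN4, CLDN7, CLDN8, CLDN12 and OCLN) were not called. Claudin-1, a sealing claudin of stratified epithelia, gave 10.38, 10.25 and 10.26 in the vector arrays, 10.31, 10.34 and 10.33 in those of full-length Notch1, 10.78, 10.66 and 10.76 in those of Notch1 L1601P+ΔP, and 10.84, 10.79 and 10.86 in the NICD arrays. All Notch1 L1601P+ΔP and NICD arrays lay above all vector and full-length Notch1 arrays. CLDN1 was higher by 0.44 ± 0.05 with Notch1 L1601P+ΔP (limma adjusted p = 0.000369) and by 0.53 ± 0.05 with NICD (adjusted p = 8.24e-06). Between NICD and Notch1 L1601P+ΔP it differed by 0.09 ± 0.05, with a 95% interval of -0.03 to 0.21.

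Claudin-4, another sealing claudin, gave 6.76, 6.78 and 6.85 in the vector arrays, 6.93, 6.90 and 6.86 in those of full-length Notch1, 7.38, 7.12 and 6.98 in those of Notch1 L1601P+ΔP, and 6.99, 7.03 and 6.84 in the NICD arrays. It was called with Notch1 L1601P+ΔP (0.36 ± 0.09, limma adjusted p = 0.0341) and not with NICD (0.16 ± 0.09, adjusted p = 0.229). The difference between those groups was itself not called (-0.21 ± 0.09, adjusted p = 0.132). The call with Notch1 L1601P+ΔP was lost in 6 of 12 alternatives, with adjusted p up to 0.107, among them leaving out any 1 of the vector arrays. The uncalled membrane genes differed from vector with NICD by -0.17 (CLDN3) to 0.10 (CLDN8), apart from CLDN4. Occludin, the founding member of its family, was 0.06 ± 0.08 (95% interval -0.12 to 0.23).

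Tricellulin (MARVELD2), which sits where the corners of neighbouring cells meet and lies next to OCLN on chromosome 5, was 9.51 ± 0.12 with vector and 8.98 ± 0.10 with NICD (-0.53 ± 0.07, limma adjusted p = 9.62e-05). Its difference with Notch1 L1601P+ΔP was -0.04 ± 0.07, and NICD was below Notch1 L1601P+ΔP by 0.49 ± 0.07 (adjusted p = 0.000287). MARVELD3, a further occludin relative, was -0.51 ± 0.10 with NICD (adjusted p = 0.00247). Of the 3 scaffolds, ZO-1 (TJP1), which binds claudins and occludin to actin, was called lower at -0.27 ± 0.05 (adjusted p = 0.00184). ZO-3 (TJP3) at -0.33 ± 0.13 (adjusted p = 0.0801) and cingulin (CGN) at 0.30 ± 0.11 (adjusted p = 0.0559) were not called.

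Among 4 connexins, the connexin gene GJB5 fell with NICD, from 9.93 ± 0.06 to 9.24 ± 0.16 (-0.69 ± 0.07, limma adjusted p = 1.37e-05). It was -0.07 ± 0.07 with Notch1 L1601P+ΔP (95% interval -0.23 to 0.09), and the difference between NICD and Notch1 L1601P+ΔP was called (-0.62 ± 0.07, adjusted p = 5.92e-05). The connexin gene GJB2 was -0.08 ± 0.09 with NICD (95% interval -0.27 to 0.12). GJA1 and GJB6, each read by 1 dim probe set with vector means of 3.03 and 3.16, were 0.06 ± 0.16 and -0.02 ± 0.09. Levels this near the bottom of the scale limit what could be detected.

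Of 5 adherens junction genes measured, NECTIN4, CTNNB1 and NECTIN1 rose with NICD, CTNNA1 fell, and CDH3 was not called. Nectin-4, a nectin that binds nectin-1 on the next cell, gave 6.40, 6.65 and 6.83 in the vector arrays, 6.68, 6.75 and 6.75 in those of full-length Notch1, 7.14, 6.90 and 7.07 in those of Notch1 L1601P+ΔP, and 8.19, 8.19 and 7.77 in the NICD arrays. The NICD arrays stood above all others. NECTIN4 was higher by 1.42 ± 0.12 with NICD, a 2.68-fold difference (limma adjusted p = 1.8e-06). The difference with Notch1 L1601P+ΔP was 0.41 ± 0.12 (adjusted p = 0.078). Its promoter is shown because it was the member with the largest rise: it held TGGGAA from base 23 of the transcribed part and, on the other strand, 13 bases before the start, and CAGGTG on the other strand 38 bases before the start.
NECTIN4 (chr1:161089509-161089808, minus strand): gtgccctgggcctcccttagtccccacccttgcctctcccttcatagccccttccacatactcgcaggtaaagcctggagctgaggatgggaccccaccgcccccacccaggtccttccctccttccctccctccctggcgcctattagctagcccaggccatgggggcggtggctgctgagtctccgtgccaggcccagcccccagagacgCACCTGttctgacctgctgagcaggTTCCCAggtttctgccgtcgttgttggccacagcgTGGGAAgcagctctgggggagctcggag

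Beta-catenin (CTNNB1), which couples cadherins to alpha-catenin and also carries Wnt signals, was higher with NICD by 0.38 ± 0.05 (limma adjusted p = 0.000149). Alpha-catenin (CTNNA1), which joins that complex to actin, was -0.26 ± 0.05 (adjusted p = 0.00104). NECTIN1 was 0.22 ± 0.05 (adjusted p = 0.00349), a call lost when its probe sets were averaged (adjusted p = 0.261), and P-cadherin (CDH3), the cadherin of basal mammary cells, was 0.14 ± 0.07 (adjusted p = 0.149).

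EPCAM, an epithelial adhesion molecule, gave 10.48, 10.61 and 10.51 in the vector arrays, 10.47, 10.49 and 10.55 in those of full-length Notch1, 10.16, 10.21 and 10.30 in those of Notch1 L1601P+ΔP, and 9.76, 9.89 and 9.74 in the NICD arrays. The NICD arrays were the lowest and did not overlap any other group. EPCAM was -0.74 ± 0.06 with NICD (limma adjusted p = 1.3e-06) and -0.31 ± 0.06 with Notch1 L1601P+ΔP (adjusted p = 0.0121), the latter lost in 3 of 12 alternatives (adjusted p up to 0.0606). With full-length Notch1 it was -0.03 ± 0.06 (95% interval -0.16 to 0.11).

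**Figure D3:**
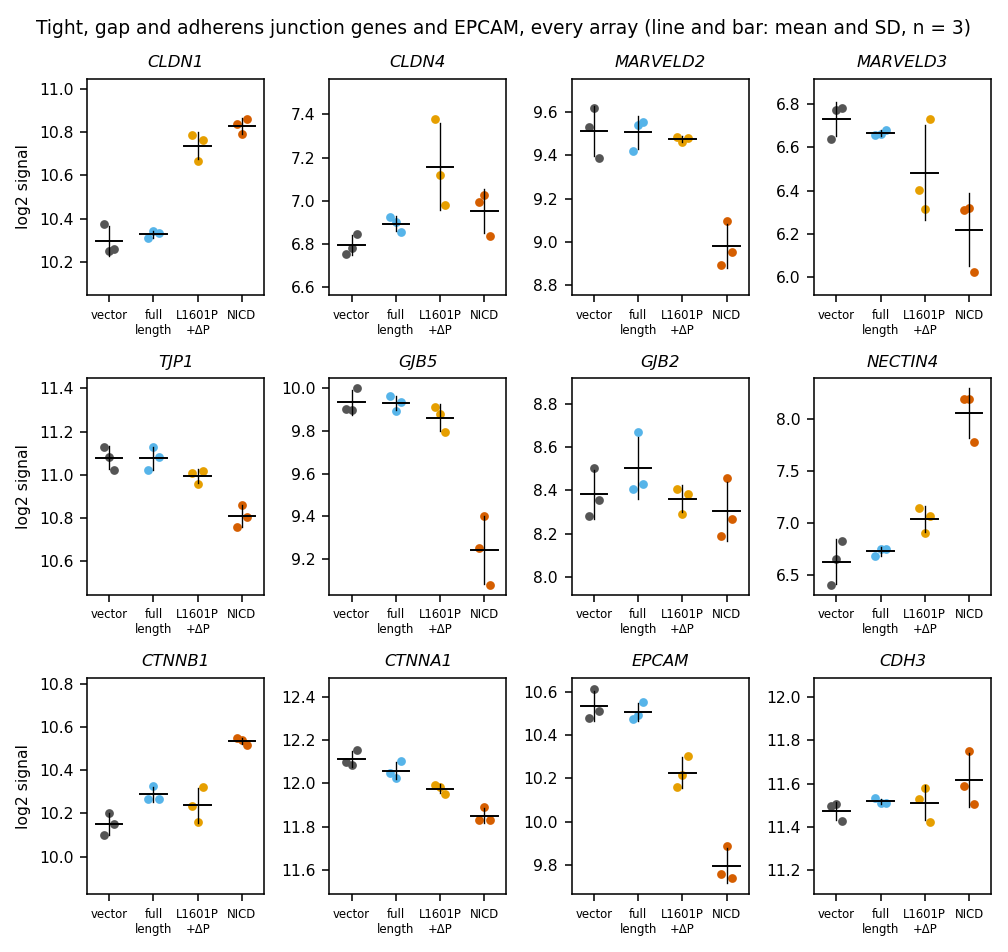
Log2 signal of tight, gap and adherens junction genes and EPCAM in each of the 12 arrays, by group. Points are arrays, horizontal lines are group means and vertical bars are the SD of 3 arrays. CLDN1 is raised in both the Notch1 L1601P+ΔP and the NICD arrays, NECTIN4 and the fall of MARVELD2 and GJB5 stand out in the NICD arrays, and EPCAM declines in both.

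The Notch1 constructs were also compared with each other. Between NICD and Notch1 L1601P+ΔP, 6 members were called higher (DSG3, DSC2, DSC3, DSP, CTNNB1 and NECTIN4) and 8 lower (PKP2, PKP3, DST, PLEC, MARVELD2, TJP1, GJB5 and EPCAM), against 8.73% and 11.1% of all genes. The sizes ran from 1.01 ± 0.12 for NECTIN4 to -1.36 ± 0.08 for DST. DSC3 (0.63 ± 0.07), DSC2 (0.51 ± 0.07) and DSG3 (0.43 ± 0.05) were the cadherins among them. The calls of PKP3 and TJP1 were lost in 5 and 6 of 12 alternatives.

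Between Notch1 L1601P+ΔP and full-length Notch1, 3 members were called higher (DSG3, DSP and CLDN1) and 4 lower (PKP2, DST, PLEC and EPCAM), where 1.86% of all genes were called in each direction. PKP2 (-0.59 ± 0.07) and DST (-0.48 ± 0.08) were the largest falls and CLDN1 the largest rise (0.41 ± 0.05). The calls of DSP, PLEC and EPCAM here were each lost in 6 to 8 of 12 alternatives. Over all genes 735 were called here, but 474 and 409 without full-length Notch1 replicates 2 and 3, and 462 and 403 without Notch1 L1601P+ΔP replicates 1 and 2. Between NICD and full-length Notch1, 9 members were called higher (DSG3, DSC2, DSC3, DSP, PKP1, CLDN1, CTNNB1, NECTIN1 and NECTIN4) and 10 lower (PKP2, PKP3, DST, PLEC, MARVELD2, MARVELD3, TJP1, GJB5, CTNNA1 and EPCAM), against 10.1% and 17% of all genes. After cyclic loess the higher share of all calls went from 37.3% to 52.9% here and from 50.1% to 62.5% between Notch1 L1601P+ΔP and full-length Notch1. The calls of CTNNA1 and NECTIN1 here were each lost in 2 of 12 alternatives, with adjusted p up to 0.0941 and 0.215. The largest in each direction were NECTIN4 (1.32 ± 0.12) and DST (-1.84 ± 0.08).

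The 86 probe sets of the members gave a second reading, with p-values adjusted over 54613 probe sets, of which 6.75% were called higher and 12.6% lower with NICD. Each probe set of DSC2 (4), DSC3 (3), DSG3 (2) and CLDN1 (2) was called higher, and each of PKP2, PKP3, PLEC, MARVELD2 and TJP1 (2 each) lower. For DST, 7 of 10 were called lower, down to -1.82, and the others, at most 0.05, had vector means of 2.89 to 3.41. No member had probe sets called in opposite directions. CTNNA1 had 4 of 5 lower, CTNNB1 2 of 3 higher, and NECTIN1 1 of 4, MARVELD3 1 of 3 and PKP1 1 of 2. Of genes not called by their brightest probe set, PKP4 had 2 of 5 lower, and TJP3 and DSG2 1 of 2 lower. With Notch1 L1601P+ΔP against vector, each probe set of DSC3 (3), DSG3 (2), CLDN1 (2) and DSP (1) was called higher, and each of PKP2 (2) and EPCAM (1) lower. DSC2 had 2 of 4 called higher, DST 5 of 10 and PLEC 1 of 2 lower, and CLDN4 0 of 2 called. The share of all 54613 probe sets called in this comparison is not given here, so these counts lack a background. By each gene's brightest probe set, 2.16% of all genes were called higher and 2.95% lower. Between Notch1 L1601P+ΔP and full-length Notch1, no probe set of DSP, EPCAM or PLEC was called.

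**Figure D4:**
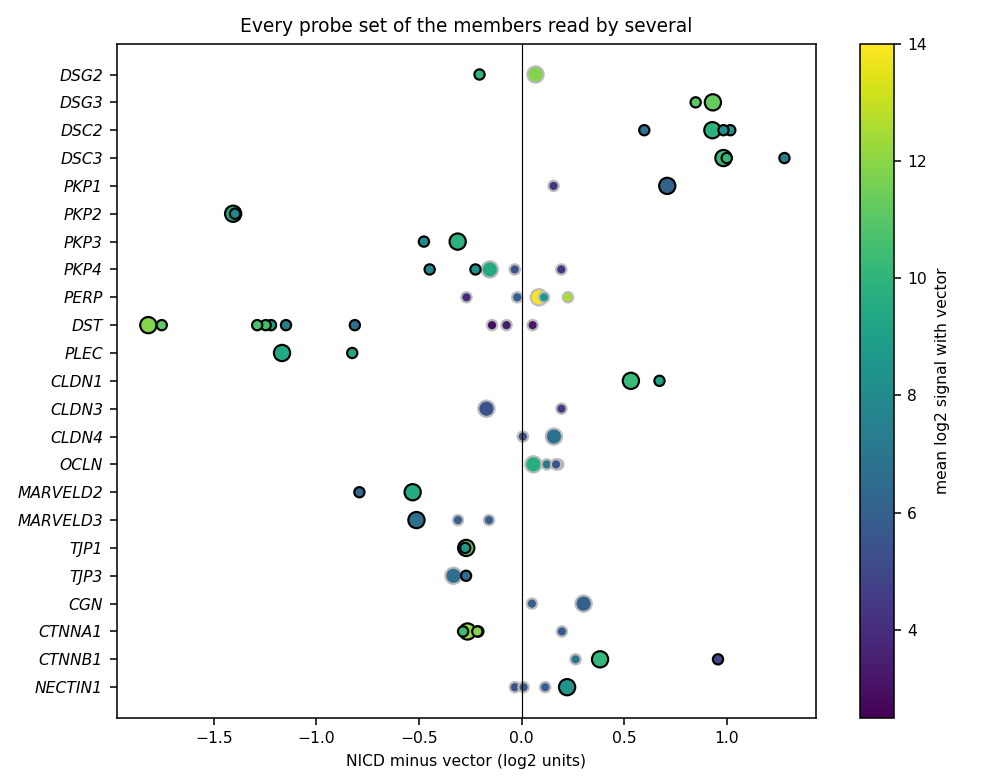
Difference of NICD from vector (log2 units) for each probe set of the members. Large points are the brightest probe set of a gene, black edges mark an adjusted p under 0.05 over all probe sets, and grey edges mark the rest. Probe sets of DSC2, DSC3, DSG3, PKP2 and PLEC lie together, and those of DST spread from -1.82 to 0.05.

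Other genes of the same structures gave a wider view. Of 66 listed, 57 were measured, and with NICD 10 were called higher and 17 lower (17.5% and 29.8%). Of all genes 9.54% and 18.1% were called, and 15.1% and 32.3% of those left by the filter on dim genes. The 17.5% and 29.8% are shares of all 57 before that filter, so the filtered shares are not their background. There were 4 and 5 with Notch1 L1601P+ΔP (7.02% and 8.77%, beside 2.16% and 2.95% of all genes), and full-length Notch1 had 0. When p was left unadjusted, at 0.05, full-length Notch1 had 0 higher and 1 lower, beside 444 and 609 of all 19775 genes. Hemidesmosomes, which attach basal cells to the matrix and contain products of DST and PLEC, had 2 of 3 measured genes lower: integrin ITGB4 at -1.97 ± 0.06 and its partner ITGA6 at -1.07 ± 0.05. Of 12 further claudins, limma called 0 with NICD against vector, with 0 also at a p under 0.05 before adjustment, but 8 of them had means under 6 in every group, which limits what could be detected. Of 12 other tight junction and polarity genes, 6 were lower and 1 (CXADR) higher, and of 8 connexins and pannexins, GJA3 was lower and the channel gene PANX1 higher (1.40 ± 0.06).

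In the other adherens junction list, 2 of 8 were higher and 2 lower. NECTIN3, which pairs with other nectins, was 1.34 ± 0.07, the alpha-catenin relative CTNNAL1 was -1.73 ± 0.07, and E-cadherin (CDH1) was 0.02 ± 0.06 (95% interval -0.11 to 0.15). Of 3 further desmosome and plakin genes, DSG4, dim, was higher (0.94 ± 0.14) and periplakin (PPL) and envoplakin (EVPL) lower (-0.89 ± 0.07 and -0.23 ± 0.07). ITGA6, CXADR, GJA3, NECTIN3, CDH1, DSG4, PPL and EVPL were named after their values were seen. Their calls were made with limma, at an adjusted p under 0.05. The call of EVPL with NICD was lost under cyclic loess, and that of CXADR under the replicate block and with only the groups compared.

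Regulators of epithelial junction genes moved in the same arrays. Of 11 measured, 5 were called higher with NICD and 4 lower by limma, beside 9.54% and 18.1% of all genes. Higher were the repressors of epithelial genes ZEB2 (2.36 ± 0.15), SNAI2 (1.67 ± 0.06), ZEB1 (0.99 ± 0.11) and SNAI1 (0.31 ± 0.08), and the grainyhead-like factor GRHL1 (0.42 ± 0.09). Lower were the epithelial splicing factor ESRP1 (-1.17 ± 0.05), OVOL2 (-0.56 ± 0.07), GRHL3 (-0.29 ± 0.06) and TWIST1 (-0.26 ± 0.07), whose call was lost under cyclic loess. SNAI1 was dim, with means of 5.18 with vector and 5.49 with NICD. ZEB2 was dim with vector (4.40) and Notch1 L1601P+ΔP (5.33), and passed the filter only through its NICD mean (6.76). With Notch1 L1601P+ΔP, ZEB2 (0.93 ± 0.15), SNAI2 (0.64 ± 0.06) and ESRP1 (-0.33 ± 0.05) were called, beside 2.16% of all genes higher and 2.95% lower. Their part in the junction values was not tested.

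Mammary lineage markers moved too. The basal keratins KRT5 and KRT14 were higher with NICD by 0.58 ± 0.05 and 0.57 ± 0.07, while ITGB4, the third of 3 basal markers measured, was lower. Their summed signal was 14.38 to 14.53 (log2) in the vector arrays, 14.60 to 14.65 in those of full-length Notch1, 14.85 to 14.88 in those of Notch1 L1601P+ΔP and 14.85 to 14.98 in the NICD arrays. Of 5 luminal markers, KRT8 was higher (0.37 ± 0.08) and KRT18 (-0.24 ± 0.05) and GATA3 (-0.28 ± 0.07) lower, and their summed signal was 12.84 to 12.92, 12.83 to 12.85, 12.71 to 12.81 and 12.67 to 12.80 in the same order of groups. The sums add unlogged signals, so they mainly follow the brightest genes and are not readings of a lineage. With vector, KRT5 and KRT14 had means of 13.33 each and ITGB4 10.97. Among the luminal markers KRT18 had 12.53, KRT8 9.88 and GATA3 9.07. The part of these markers in the junction values was not tested.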

How the data were processed

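Total RNA from MCF-10A cells was read on 12 arrays. Per the submitters' processing notes, the authors used RMA and limma, and the log2 values analysed are those the authors deposited (2.27 to 15.01). The sources used here give no versions and no genome build. RMA equalises the arrays' distributions, so a shift of most genes one way cannot be seen, and dim values are compressed. Array number, not depth, limits the precision.

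Of 54675 probe sets, 62 were controls, 41091 carried 1 gene symbol in the platform annotation, 1801 several and 11721 none. The probe set with the highest mean stood for each of 19775 genes. limma 3.58.1 in R 4.3.3 (lmFit, contrasts, eBayes; two-sided) fitted the 4 group means to all 12 arrays, with 8 residual and 4.09 prior degrees of freedom, and made 6 comparisons, each adjusted by Benjamini-Hochberg over all genes. The code was tested on simulated data. No other columns of values were left out (0).

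The members and gene lists were chosen with earlier results of these data known. Every array's value is given for members called with NICD at a log2 difference of at least 0.7, or with another construct at 0.3. Of related genes, regulators and the 3 largest calls in each direction were named. Alternatives were cyclic loess, a filter on dim genes, averaged probe sets, a variance trend, only the groups compared, the replicate block and leaving out each array. Same-numbered arrays did not deviate together, with correlations of -0.115 to 0.162 over 18 pairs, so the numbers were not used as pairs.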

Additional observations from a re-analysis of the deposited data

How the results depend on the processing

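No call of a gene's brightest probe set changed direction under any alternative that kept that probe set. Averaging probe sets changed no member's called direction either. Of 21 member calls with NICD against vector, NECTIN1 alone was lost, and DSG1 could not be tested once dim genes were removed. With Notch1 L1601P+ΔP against vector, calls higher numbered 6, 10 without dim genes (31 members tested) and 11 with a variance trend. Of all genes, 2.16%, 4.2% and 2.7% were called higher in those fits. Over the fits that left out an array, the 4 calls lower ranged from 2 to 4 and the higher calls from 4 to 8. With an array of either group left out, 566 to 957 of all genes were called, beside 1012 with every array. Against full-length Notch1, Notch1 L1601P+ΔP had 3 calls higher, 5 with a variance trend, and 2 to 4 with an array left out. Its 4 calls lower ranged from 2 to 3. Of all genes 1.86% were called higher there, and 2.28% with a variance trend. With an array of either group left out, 403 to 642 were called, beside 735. The remaining member counts stayed within 1.5 times, and full-length Notch1 against vector had 0 calls under every alternative. The cause of these changes was not tested. Of 32 calls among related and marker genes with NICD against vector, 0 reversed in the 6 alternatives run on them without leaving out arrays, and EVPL, TWIST1, PATJ and CXADR were lost in at least 1.

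Among members called by their brightest probe set in a comparison, dimmer probe sets of 3 genes had the opposite sign there. For DST these were 0.127, 0.0379 and 0.0896 with Notch1 L1601P+ΔP against vector, 0.0539 with NICD against vector, 0.112 with NICD against full-length Notch1, and 0.0713 and 0.147 with Notch1 L1601P+ΔP against full-length Notch1. For CTNNA1 they were 0.196 with NICD against vector and 0.166 against full-length Notch1, and for NECTIN1 -0.0327 and -0.104.

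With the replicate block, member calls with NICD against vector were 12 higher and 10 lower, beside 9.27% and 16.9% of all genes in that fit. With Notch1 L1601P+ΔP against vector they were 7 and 4, beside 1.96% and 2.31%. Between Notch1 L1601P+ΔP and full-length Notch1 they were 2 and 3, beside 1.57% and 1.39%, and DSP and PLEC were lost there. Same-numbered arrays correlated with a median of -0.0275 and others with -0.0015, so no shared effect of the replicate number was seen. With 3 arrays per group this cannot exclude that same-numbered arrays were handled as sets.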
